A study of Mus musculus with 8 samples.

Results

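The 10 genes described here encode the granins and peptide processing enzymes of the dense-core vesicle, namely Chga, Chgb, Scg2, Scg3, Vgf, Scg5, Pcsk1, Pcsk2, Cpe and Pam. They were chosen by name from the 14353 genes of the table, all 10 were found, and all 10 passed the filter on low values that 14249 genes passed. Their levels were compared between ribosome-bound RNA of glutamatergic neurons (TRAP) and RNA of the whole tissue lysate (INPUT) from mouse ventral pallidum (VP). Mice were homozygous for VGluT2-Cre and heterozygous for Rpl22, the RiboTag allele, and were untreated. In this cross, cells with Cre carry an HA-tagged ribosomal protein RPL22, and an antibody to HA pulls down their ribosomes with the bound mRNA. Cre is driven from the Slc17a6 locus, which encodes vGluT2, so the tag reports vGluT2 expression at any age and not only in the adult. Punches of the VP can also take in some adjoining striatum and nucleus accumbens. The 4 pools are named VP1.6, VP2.2, VP2.6 and, last, VP2.11, the order in which 4 values of a gene are given, and every pool held VP punches of 7 to 11 mice of both sexes. A pool gave 1 TRAP library and 1 INPUT library. Mice of VP1.6 were 9 to 12 weeks old and those of the other pools 10 to 16 weeks. All 8 libraries came from mice with the tag, so there was no pulldown from mice without Cre, and RNA that adheres to the beads was not measured apart. The methods name the second fraction sequenced as unbound RNA in one place and as input elsewhere, and the labels' name is kept here.

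Neurons store neuropeptides in dense-core vesicles, which form at the trans-Golgi network and are released on calcium entry, mostly away from the active zone. Granins are acidic proteins that aggregate in the lumen, help to form the vesicle and are themselves cut into peptides. Peptide precursors are cut after pairs of basic residues by the prohormone convertases PC1/3 and PC2, trimmed by carboxypeptidase E and, where a glycine ends the peptide, amidated by PAM. In the VP and the adjoining striatum, many peptides, enkephalin and substance P among them, are made by GABAergic neurons.

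Slc17a6, the check of the pulldown, had 14.4 to 39.4 CPM (counts scaled to library size) in the INPUT libraries and 130 to 162 CPM in the TRAP libraries. TRAP and INPUT were compared with limma across all genes in an unblocked fit, which has the fraction as its one term, and in a blocked fit, which adds the pool. A gene was called at a Benjamini-Hochberg adjusted p under 0.05. Within a pool, a gene above its TRAP mean tended to lie below its INPUT mean (Pearson's r across genes of -0.495 to -0.745). Libraries of different pools gave r of 0.0457 to 0.441. Deviations are from the mean of a fraction, so negative r within pools makes r between pools positive on average, and these ranges are not independent. Where the negative r within pools comes from in the deposited values is not known. It widens the spread of within-pool differences, which the unblocked fit understates, and both fits are given for each gene. The unblocked fit called 47.9% of all genes tested, 23.2% higher and 24.8% lower in TRAP. The blocked fit called 32.2%, of which 15.4% lay higher and 16.8% lower. The median log2 fold change of all genes was -0.05. In bulk samples such as these, more cells with a transcript and more transcript per cell cannot be told apart.

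Of the 10 genes, 7 were higher in TRAP in the unblocked fit and 6 in the blocked fit, and none was called lower in either fit. Of all genes tested, 23.2% were higher and 24.8% lower in the unblocked fit, and 15.4% and 16.8% in the blocked fit. Chgb, Pcsk1, Chga, Scg2, Scg3 and Pcsk2 rose in both fits. Vgf was called in the unblocked fit only, and Scg5, Cpe and Pam in neither. Of the 10 log2 fold changes 9 were positive, with a median of 0.75. For 6 genes the TRAP libraries lay wholly above the INPUT libraries, as they did for 23.3% of all genes tested. For none of the 10 did they lie wholly below, against 24.4% of all genes.

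The sequences before the start sites of the genes with the largest differences are shown because 3 of those genes share a motif there. RefSeq promoter windows (GRCm38.p6) run from 250 bases before to 50 bases after the start of a gene, and 8 of the 10 genes had one, Vgf and Cpe being those not matched. The cyclic AMP response element (CRE), TGACGTCA, reads the same on both strands and was found in 3 of the 8 windows, those of Chgb, Scg2 and Pcsk1. It was found in 1.79% of all 32851 windows. The CRE is the site that CREB binds, a factor that responds to cyclic AMP and calcium. The element began 72 bases before the RefSeq start in Chgb, 68 bases in Scg2 and 78 bases in Pcsk1. These starts lie 364, 94 and 31 bases downstream of the 5′ ends in GENCODE, from which the gene intervals in the text are taken, so in Chgb and Scg2 the element falls inside the GENCODE gene. Its half-site TGACG, searched on both strands and also contained in the full element, was in 7 of the 8 windows and in 20.8% of all windows. The window of Chga held 1 half-site, 44 bases before the start, and that of Pam held none. The search took exact matches only. Sites 1 letter off the full element, such as TGACGTAA in Chga and TGACGCCA in Scg3, thus count as half-sites, and their share over all windows was not counted. The window of Scg5, a gene called in neither fit, held 3 half-sites, and those of Scg3 and Pcsk2 held 1 each. In the windows below, written along the strand of the gene, capitals mark the full element in Chgb, Scg2 and Pcsk1 and the half-site in Chga, and the window of Pam is shown as the one without either. The windows are chr2:132781392-132781691 on the plus strand for Chgb, chr1:79439977-79440276 on the minus strand for Scg2, chr13:75089607-75089906 on the plus strand for Pcsk1, chr12:102554691-102554990 on the plus strand for Chga and chr1:98095597-98095896 on the minus strand for Pam.
Chgb: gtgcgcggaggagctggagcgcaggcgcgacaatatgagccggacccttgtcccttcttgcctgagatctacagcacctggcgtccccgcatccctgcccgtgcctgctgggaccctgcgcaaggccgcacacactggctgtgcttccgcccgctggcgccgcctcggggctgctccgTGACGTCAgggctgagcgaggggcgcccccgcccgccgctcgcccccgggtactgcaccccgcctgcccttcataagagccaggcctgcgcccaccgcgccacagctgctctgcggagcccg
Scg2: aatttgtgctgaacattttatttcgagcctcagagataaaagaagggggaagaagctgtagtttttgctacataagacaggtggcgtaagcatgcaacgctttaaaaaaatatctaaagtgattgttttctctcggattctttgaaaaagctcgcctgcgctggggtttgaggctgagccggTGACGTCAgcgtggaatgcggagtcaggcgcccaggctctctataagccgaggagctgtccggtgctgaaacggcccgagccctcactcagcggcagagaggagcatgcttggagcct
Pcsk1: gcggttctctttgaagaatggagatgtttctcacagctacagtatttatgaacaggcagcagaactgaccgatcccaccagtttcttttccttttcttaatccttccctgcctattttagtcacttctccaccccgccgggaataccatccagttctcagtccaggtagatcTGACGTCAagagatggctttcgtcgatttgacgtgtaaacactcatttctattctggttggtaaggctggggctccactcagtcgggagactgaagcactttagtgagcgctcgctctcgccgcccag
Chga: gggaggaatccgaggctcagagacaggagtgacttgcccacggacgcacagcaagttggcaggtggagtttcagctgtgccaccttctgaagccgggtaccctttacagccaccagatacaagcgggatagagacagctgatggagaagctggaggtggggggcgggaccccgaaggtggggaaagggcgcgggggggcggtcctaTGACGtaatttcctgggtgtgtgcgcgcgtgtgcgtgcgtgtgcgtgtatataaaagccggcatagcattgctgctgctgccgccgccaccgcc
Pam: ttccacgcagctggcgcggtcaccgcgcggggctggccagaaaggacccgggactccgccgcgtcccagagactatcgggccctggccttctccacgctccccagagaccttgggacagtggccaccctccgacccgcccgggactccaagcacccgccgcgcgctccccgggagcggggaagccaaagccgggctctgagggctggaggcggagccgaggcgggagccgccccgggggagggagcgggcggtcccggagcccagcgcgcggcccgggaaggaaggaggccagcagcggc
A match is a run of letters in a window, and no binding was measured here.

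**Figure D1:**
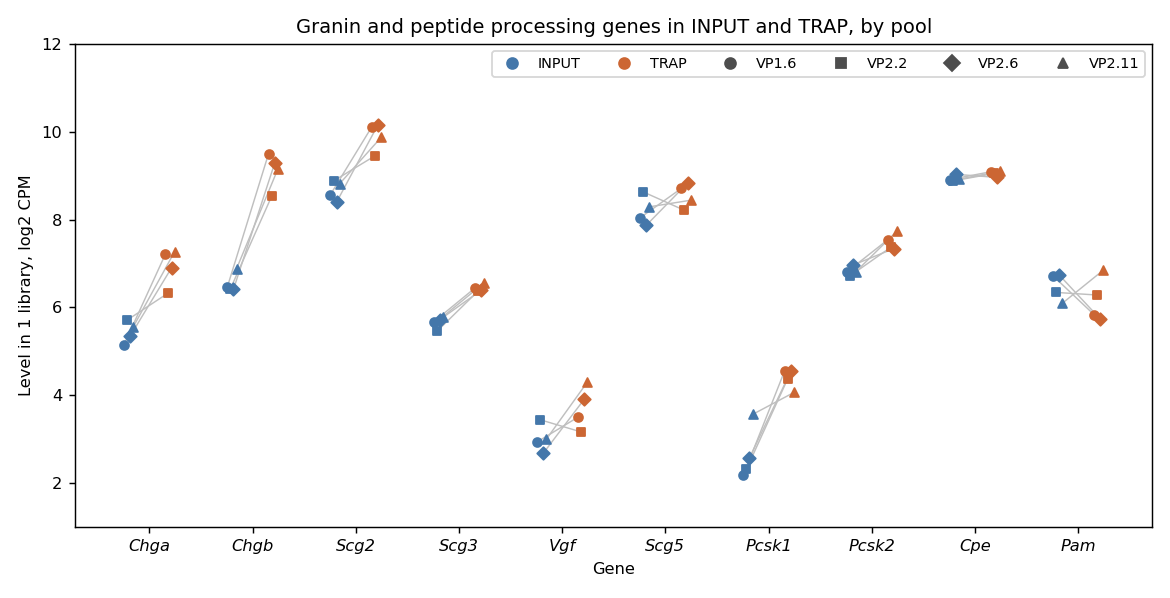
Level of each of the 10 genes in each library (log2 CPM, y axis), with INPUT in blue, TRAP in orange, a marker shape for each pool and a line joining the libraries of 1 pool. Chgb runs from 6.41 to 6.88 in INPUT and from 8.53 to 9.50 in TRAP, whereas the points of Cpe lie between 8.88 and 9.10 in both fractions.

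Chgb encodes chromogranin B, a granin of the vesicle lumen, and had the largest difference of the 10 genes. It lies on chromosome 2 of GRCm38 from 132781278 to 132795079. INPUT levels were 88.0 CPM in VP1.6, 85.6 in VP2.2, 85 in VP2.6 and 118 in VP2.11. TRAP levels of the same pools were 722, 370, 625 and 568 CPM. The lowest TRAP library thus stood above the highest INPUT library, and VP2.11 was the high one in INPUT. Chgb rose 5.95-fold, a log2 fold change of 2.57 (SE 0.21 unblocked and 0.23 blocked, limma-adjusted p 4.7e-05 and 3.5e-06). Only 0.295% of genes tested had a larger log2 fold change.

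Chga, for the related chromogranin A, is on chromosome 12 from 102554969 to 102565028. Its INPUT levels were 35.5, 52.3, 40.7 and 47.2 CPM in pool order, and its TRAP levels 148, 80.7, 120 and 154 CPM. The fractions did not overlap, but VP2.2 had both the highest INPUT and the lowest TRAP level. Chga rose 2.81-fold, or by 1.49 on the log2 scale (SE 0.21 unblocked and 0.25 blocked, limma-adjusted p 4.4e-04 and 5.8e-04).

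Scg2 encodes secretogranin II, the precursor of secretoneurin, and is on chromosome 1 from 79434669 to 79440120. In INPUT it had 380 CPM in VP1.6, 472 in VP2.2, 339 in VP2.6 and 452 in VP2.11. In TRAP it had 1110, 702, 1140 and 936 CPM. The same pool, VP2.2, was again highest in INPUT and lowest in TRAP, and the fractions did not overlap. Scg2 rose 2.34-fold, or by 1.23 on the log2 scale (SE 0.19 unblocked and 0.25 blocked, limma-adjusted p 5.7e-04 and 0.0023).

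Scg3, for secretogranin III, which links chromogranin A to the vesicle membrane, is on chromosome 9 from 75643189 to 75684056. It changed less but more evenly. Its INPUT levels were 50.9, 43.7, 52.9 and 55.3 CPM and its TRAP levels 86.6, 82.8, 83.9 and 94.4 CPM in pool order. Differences within the pools spanned 0.26 on the log2 scale, against 0.92 to 1.59 for the other 4 granins. Scg3 rose 1.72-fold, or by 0.78 on the log2 scale (SE 0.12 unblocked and 0.21 blocked, limma-adjusted p 7.0e-04 and 0.011). The blocked call was lost when VP1.6 was left out (limma-adjusted p 0.054).

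Vgf encodes a granin-like precursor of several peptides and is on chromosome 5 from 137026392 to 137033351. INPUT held 7.62, 10.9, 6.35 and 7.94 CPM in pool order, and TRAP 11.3, 8.93, 15.1 and 19.7 CPM. The fractions overlapped, because VP2.2 was lower in TRAP than in INPUT. Its log2 fold change of 0.71 (SE 0.26 unblocked and 0.32 blocked) had a limma-adjusted p of 0.046 unblocked and 0.11 blocked. Leaving out VP1.6, VP2.6 or VP2.11 ended the unblocked call as well (limma-adjusted p 0.12, 0.23 and 0.15), whereas without VP2.2 the log2 fold change was 1.04 and the unblocked adjusted p 0.011.

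**Figure D2:**
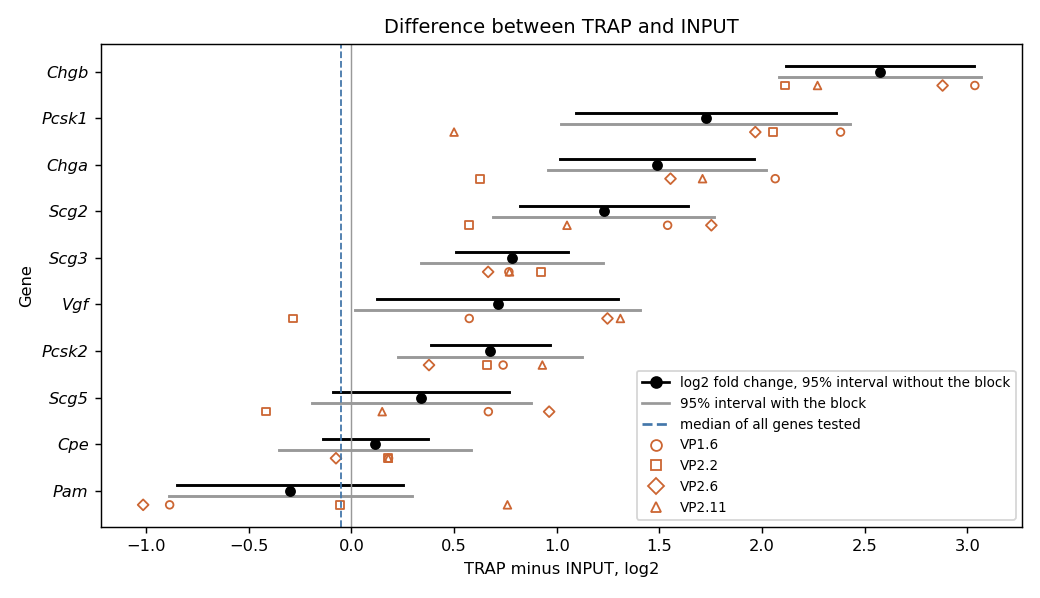
TRAP minus INPUT difference of each gene on the log2 scale (x axis), sorted by size. Black points are log2 fold changes (n = 4 libraries per fraction) with 95% intervals from the unblocked limma fit in black and the blocked fit in grey, open orange marks are the 4 pools, and the dashed line is the median of all genes tested, -0.05. The intervals of Scg5, Cpe and Pam include 0.

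Pcsk1 encodes PC1/3, the convertase that makes the early cuts in peptide precursors, and is on chromosome 13 from 75089826 to 75134861. INPUT levels were 4.50 CPM in VP1.6, 4.97 in VP2.2, 5.95 in VP2.6 and 11.8 in VP2.11, and TRAP levels were 23.5, 20.7, 23.3 and 16.7 CPM. VP2.11 had the highest INPUT and the lowest TRAP level, so its difference was 0.50 against 1.97 to 2.38 in the other pools. Pcsk1 rose 3.31-fold, or by 1.73 on the log2 scale (SE 0.29 unblocked and 0.33 blocked, limma-adjusted p 9.2e-04 and 0.0014). Without VP2.11 the rise was 2.13 on the log2 scale.

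Pcsk2 encodes PC2, the convertase that makes later cuts, and is on chromosome 2 from 143546156 to 143816285. It had 111, 105, 124 and 112 CPM in INPUT and 186, 165, 162 and 214 CPM in TRAP in pool order. All 4 pools were higher in TRAP and the fractions did not overlap. Pcsk2 rose 1.6-fold, or by 0.68 on the log2 scale (SE 0.13 unblocked and 0.21 blocked, limma-adjusted p 0.0020 and 0.023). Its blocked call was lost when VP1.6, VP2.6 or VP2.11 was left out (limma-adjusted p 0.11, 0.058 and 0.099). Its exons share 3.29% of their bases with Pcsk2os1 and 1.25% with Pcsk2os2, both on the other strand, and whether reads were counted by strand is not given in the sources used here.

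Scg5 encodes 7B2, the chaperone that proPC2 needs to become active, and is on chromosome 2 from 113776362 to 113829121. It had 263, 395, 234 and 313 CPM in INPUT and 418, 296, 457 and 347 CPM in TRAP in pool order. The fractions overlapped, with VP2.2 lower in TRAP and the other pools higher. Its log2 fold change was 0.34 (95% interval -0.09 to 0.77 unblocked and -0.19 to 0.88 blocked, limma-adjusted p 0.17 and 0.32). Without VP2.2 it was 0.59 and was called in both fits (limma-adjusted p 0.014 unblocked and 0.044 blocked), whereas without VP1.6 it was 0.23 and without VP2.6 0.13 (unblocked 0.49 and 0.65).

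Cpe encodes carboxypeptidase E, which removes the basic residues that the convertases leave, and is on chromosome 8 from 64592542 to 64693054. Its levels hardly differed between libraries, at 481, 470, 524 and 484 CPM in INPUT and 545, 531, 497 and 549 CPM in TRAP in pool order. For Cpe the log2 fold change was 0.12 (limma-adjusted p 0.43 unblocked and 0.72 blocked). The 95% interval ran from -0.14 to 0.37 unblocked and from -0.35 to 0.58 blocked.

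Pam encodes the amidating enzyme and is on chromosome 1 from 97795114 to 98095646. It had 105, 80.7, 107 and 68.1 CPM in INPUT and 57.1, 77.8, 53.0 and 115 CPM in TRAP in pool order. The pools did not move together, with differences of -0.89, -0.05, -1.01 and 0.76 on the log2 scale. Over the 4 pools the log2 fold change was -0.30 (95% interval -0.85 to 0.25 unblocked and -0.89 to 0.29 blocked, limma-adjusted p 0.34 and 0.44). Leaving out VP2.11 gave -0.65, which the unblocked fit called lower (limma-adjusted p 0.028) and the blocked fit did not (0.094). Without VP1.6 it was -0.10 and without VP2.6 -0.06 (limma-adjusted p 0.81 and 0.89 unblocked). Its exons share 1.58% of their bases with B230216N24Rik on the same strand.

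Differences also varied between pools, and no pool was lowest for all 10 genes. The summed level of the granins rose by 0.91 on the log2 scale in VP2.2, against 1.38 to 1.92 in the other pools. Scg3, by contrast, had its highest difference in VP2.2. VP2.2 gave the lowest difference for 5 of the 10 genes (Chga, Chgb, Scg2, Vgf and Scg5), VP2.6 for 4 and VP2.11 for 1. VP2.2 gave the highest difference of the 4 pools for Slc17a6, 3.17 against 1.84 to 2.78 on the log2 scale. The median difference of the 10 genes was 0.75 in VP1.6, 0.60 in VP2.2, 1.10 in VP2.6 and 0.85 in VP2.11, and that of all genes between -0.04 and -0.01. The array weights that limma estimates from the scatter of each library were lowest for TRAP VP2.11 (0.226), INPUT VP2.2 (0.336) and TRAP VP2.2 (0.523). With array weights, Scg5 was called higher (log2 fold change 0.68, limma-adjusted p 0.0030) and Pam lower (-0.71, 0.0069). The blocked fit with array weights made both calls too. Array weights also raised the calls over all genes, from 6830 to 8645 unblocked and from 4592 to 6013 blocked.

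Levels of different genes were set side by side per kilobase of exon, counting every base in an exon of any transcript of the gene (GENCODE M21). Where transcripts differ in their exons, this length exceeds that of 1 transcript and lowers the level per kb. Other lengths were not tried. In TRAP, Scg2 had the highest level, 386 ± 79.7 CPM per kb (SD, n = 4), followed by Scg5 with 242 ± 45.6, Chgb with 209 ± 54.2 and Cpe with 203 ± 9.01. Ranges over libraries of each of these overlapped with the next, although within a library Scg2 was above Scg5 and Scg5 above Chgb in 4 of 4, and Chgb above Cpe in 2 of 4. Chga (45.6 ± 12.2) and Scg3 (31.7 ± 1.90) formed an overlapping pair below Cpe, then Pcsk2 stood at 23.0 ± 3.03 CPM per kb (SD, n = 4), apart from both neighbours. Pam (6.38 ± 2.40), Vgf (4.63 ± 1.58) and Pcsk1 (3.75 ± 0.563) were lowest and overlapped each with the next. In INPUT the order differed, with Scg5 (192 ± 45.0), Cpe (188 ± 9.07) and Scg2 (163 ± 24.7) overlapping at the top and Chgb at 34.3 ± 5.78 CPM per kb (SD, n = 4), below all 3. Pcsk1 was last in INPUT at 1.21 ± 0.603 CPM per kb. By TRAP level per kb, Scg2 was above 99.3% of all genes tested, Scg5 98.6%, Chgb and Cpe 98.3%, and Pcsk1 50.5%. The 10 genes summed to 2335 to 3303 CPM in the TRAP libraries and 1519 to 1719 CPM in the INPUT libraries. Chgb made up 19.1 ± 2.49% of that sum in TRAP and 5.85 ± 0.871% in INPUT (SD, n = 4), and Cpe 18.3 ± 3.16% and 30.6 ± 3.12%.

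Ratios within a library were compared for 5 pairs of genes with a known tie, per kb of exon, by exact two-sided permutation of the 8 libraries (smallest possible p 0.029) with Benjamini-Hochberg adjustment over the 5. Chga relative to Chgb was lower in TRAP than in INPUT in 4 of 4 pools, with log2 ratios of -2.20 ± 0.22 and -1.11 ± 0.29 (SD, n = 4, exact p = 0.0286, adjusted 0.0714). Pcsk1n encodes proSAAS, a granin-like protein that inhibits PC1/3, and its ratio to Pcsk1 was 2.07 ± 0.89 in INPUT and -1.05 ± 0.59 in TRAP on the log2 scale (SD, n = 4, exact p = 0.0286, adjusted 0.0714). That ratio was lower in TRAP in 4 of 4 pools, by 1.28 to 4.63. Pcsk1 relative to Pcsk2 was higher in TRAP in 3 of 4 pools, by 1.05 on average and by 1.54 without VP2.11 (exact p = 0.0571, adjusted 0.0952 with all pools). Scg5 relative to Pcsk2 changed by -0.33 (exact p = 0.257) and Cpe relative to Pam by 0.41 (exact p = 0.200), each with 1 pool of the other sign. Leaving out 1 pool gave -0.09 (without VP2.2) to -0.64 (without VP2.6) for the former and 0.20 (without VP1.6) to 0.74 (without VP2.11) for the latter. None of the 5 passed after adjustment. Chga over Chgb and Pcsk1n over Pcsk1 had the smallest possible p, and could pass only if another pair reached it too. That they did not pass thus says nothing of these 2 pairs alone. Paired by pool, the smallest p that 4 differences allow is 0.125, which the same 2 pairs reached.

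**Figure D3:**
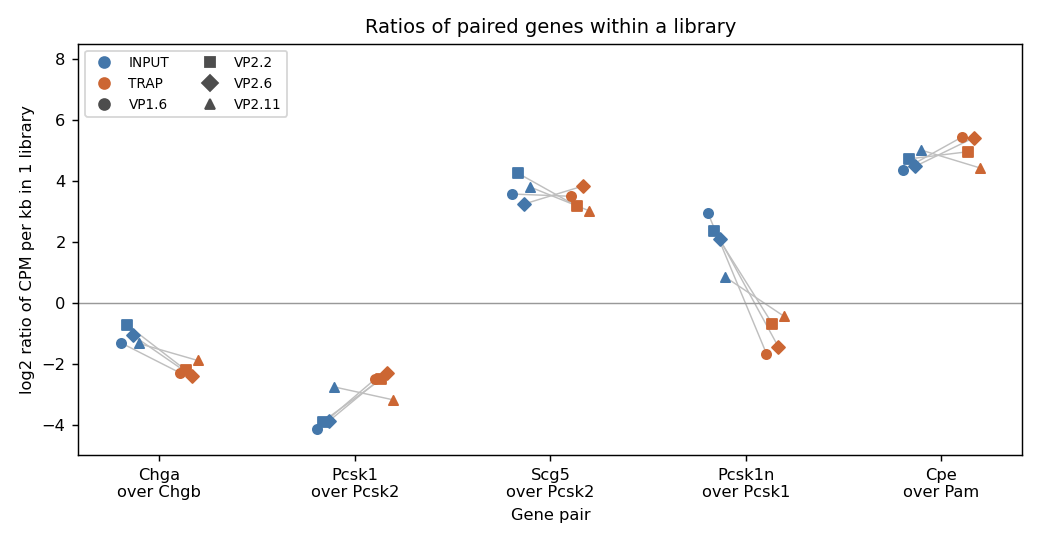
Log2 ratio of the CPM per kb of 2 genes in 1 library (y axis) for 5 pairs (x axis), with INPUT in blue, TRAP in orange, a marker shape for each pool and lines joining the libraries of 1 pool. Pcsk1n lies above Pcsk1 in all 4 INPUT libraries, from 0.84 to 2.96, and below it in all 4 TRAP libraries, from -1.67 to -0.44.

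Other enzymes and regulators of peptide processing were called in shares near those of all genes. Of 11 such genes, 3 were higher and 2 lower in TRAP in the unblocked fit, beside 23.2% and 24.8% of all genes tested, and 2 and 1 in the blocked fit. Their median log2 fold change was -0.17, and no test set this list against the 10 genes. Those called in both fits were Pcsk5, Cpd and Pcsk1n. Pcsk5, for the convertase PC5/6, rose from 3.54 ± 0.603 CPM in INPUT to 9.11 ± 2.44 CPM in TRAP (SD, n = 4, log2 fold change 1.34, limma-adjusted p 0.0012 unblocked and 0.0073 blocked). Cpd encodes a carboxypeptidase of the trans-Golgi network and rose by 0.91 on the log2 scale (limma-adjusted p 0.0029 and 0.012). Pcsk1n fell 2.64-fold, from 13.7, 10.1, 10.0 and 8.28 CPM in INPUT to 2.89, 5.05, 3.37 and 4.82 CPM in TRAP (limma-adjusted p 0.0013 and 0.0077). The blocked call for Pcsk1n was lost without VP1.6 (limma-adjusted p 0.066), and 6.16% of its exon bases overlap Eras on the other strand.

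Of 14 genes of vesicle assembly and release, 9 were higher and 1 was lower in TRAP in the unblocked fit, beside 23.2% and 24.8% of all genes tested. In the blocked fit 5 were higher and 0 lower, beside 15.4% and 16.8% of all genes. The median log2 fold change of the 14 was 0.47. When each library was centred on 5 pan-neuronal genes, named below, 1 of the 14 was higher and 10 lower in the unblocked fit. In the blocked fit 0 were higher and 7 lower, and the median was -0.585 beside -1.105 for all genes. On the deposited values, the largest differences called in both fits were in Baiap3 and Cadps, followed by Cadps2. Baiap3, a C2-domain protein that acts in dense-core vesicle traffic, rose from 34.4 ± 9.83 to 118 ± 37.0 CPM (SD, n = 4, log2 fold change 1.78, limma-adjusted p 5.0e-04 and 2.4e-04). Cadps and Cadps2 encode CAPS1 and CAPS2, which prime dense-core vesicles for release, and rose by 1.16 and 1.01 on the log2 scale (limma-adjusted p 0.0018 and 0.0085 blocked).

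The peptide precursors, the cargo of these vesicles, went mostly the other way. Of 19 listed, 16 had values. Of these, 2 were higher and 11 lower in TRAP in the unblocked fit, beside 23.2% and 24.8% of all genes tested. In the blocked fit 2 were higher and 9 lower, beside 15.4% and 16.8% of all genes. The median of the 16 log2 fold changes was -1.31. Trh, for thyrotropin-releasing hormone, rose from 27.9 ± 10.5 to 123 ± 40.6 CPM (SD, n = 4, log2 fold change 2.15, limma-adjusted p 5.0e-04 and 2.7e-04), and Adcyap1, for PACAP, from 3.12 ± 1.09 to 13.4 ± 3.61 CPM (log2 fold change 2.13). Npy, for neuropeptide Y, fell from 153 ± 55.1 to 26.4 ± 3.38 CPM (SD, n = 4, log2 fold change -2.46, limma-adjusted p 8.3e-05 and 8.0e-06). Tac2, for neurokinin B, fell by 2.12 on the log2 scale (limma-adjusted p 7.1e-05 unblocked and 3.4e-05 blocked). Vip, for vasoactive intestinal peptide, was low in both fractions and its size rested on VP2.11, where it stood at 0.162 CPM in TRAP. Its differences were -0.54, -1.16, -1.53 and -4.93 in pool order, with a log2 fold change of -2.04 (limma-adjusted p 0.049 unblocked and 0.024 blocked). Without VP2.11 it was -1.08 (0.014 and 0.081), and the unblocked call was lost without each of the other pools (limma-adjusted p 0.060 to 0.12). Summed over the list, precursors had 1351 to 2071 CPM in INPUT and 701 to 843 CPM in TRAP. All 5 striatal projection neuron markers were also lower in TRAP in both fits, with a sum of 461 to 651 CPM in INPUT and 182 to 278 CPM in TRAP, and their part in the result was not tested.

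Markers of neurons and glia moved between the fractions too. The 5 pan-neuronal genes Snap25, Syt1, Tubb3, Stmn2 and Rbfox3 were all higher in TRAP in the unblocked fit and 4 of them in the blocked fit, with a sum of 5480 to 10590 CPM in INPUT and 19040 to 27470 CPM in TRAP. Snap25 made up most of that sum, with a mean of 5174 CPM in INPUT and 18610 CPM in TRAP. It rose 3.81-fold, and the others rose 1.46-fold (Rbfox3) to 2.09-fold (Syt1). Of 5 markers each, 4 astrocyte, 4 oligodendrocyte and 5 microglia genes were lower in the unblocked fit, and 4, 4 and 4 in the blocked fit. The fifth oligodendrocyte marker, Mag, was called higher in TRAP in the unblocked fit (log2 fold change 0.61, 3 of 4 pools, limma-adjusted p 0.035 unblocked and 0.072 blocked), a call that was lost without VP2.2, VP2.6 or VP2.11 (limma-adjusted p 0.11, 0.078 and 0.12). Sums of the 3 lists in TRAP were 150 to 253, 900 to 1631 and 22.7 to 31.5 CPM, so glial RNA remained in the pulldown. Of 3 GABAergic markers 1 was lower, and of 3 cholinergic markers 1 was higher and 1 lower in the unblocked fit. The lower GABAergic marker was Slc32a1, and Gad1 and Gad2 were not called. The GABAergic sum was 584 to 1394 CPM in INPUT and 918.5 to 1573 CPM in TRAP. Its log2 ratio of TRAP to INPUT was 1.43 in VP2.2 and -0.60 to -0.18 in the other pools. The cholinergic sum was 39.4 to 84.1 CPM in INPUT and 87.8 to 136.6 CPM in TRAP. Of 3 endothelial markers 1 was higher, and their sum ran from 4.37 to 7.59 CPM in INPUT and from 9.68 to 37.4 CPM in TRAP. When each library was centred on the mean of the 5 pan-neuronal genes, which moved the median of all genes to -1.10, Chgb remained higher (log2 fold change 1.52, limma-adjusted p 1.0e-05 unblocked and 8.9e-05 blocked). Pcsk1 was called higher in the unblocked fit only (0.67, limma-adjusted p 0.032 unblocked and 0.089 blocked). On that scale Chga (0.43) and Scg2 (0.17) were not called in either fit, and Scg3 (-0.27), Vgf (-0.34) and Pcsk2 (-0.38) had the other sign and were not called. Scg5 (-0.71), Cpe (-0.94) and Pam (-1.35) were lower in both fits.

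**Figure D4:**
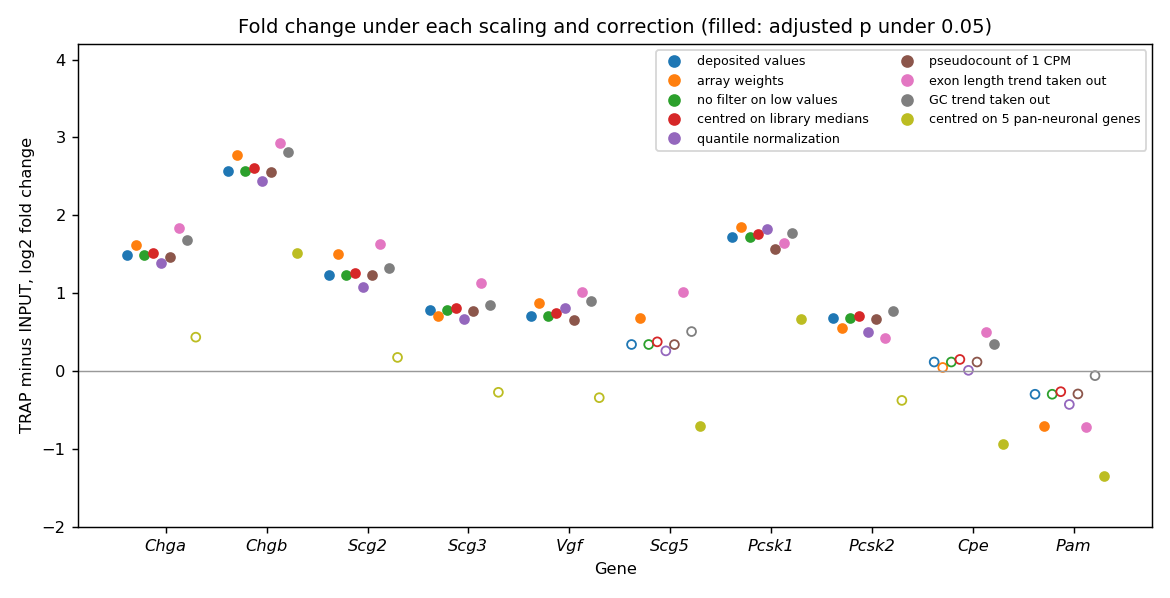
Log2 fold change from INPUT to TRAP in the unblocked fit (y axis) for the 10 genes (x axis) on the deposited values and under 8 alternatives, filled where limma's adjusted p was under 0.05. Chgb and Pcsk1 are filled throughout, and the points centred on 5 pan-neuronal genes lie lowest for each gene, from -1.35 for Pam to 1.52 for Chgb.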

How the data were processed

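Reads were aligned by the authors with STAR (2.5.1a) to Ensembl's mouse genome (GRCm38). The authors counted uniquely placed reads with featureCounts, scaled libraries by TMM in edgeR and used limma with voom and quality weights. They deposited 1 log2 CPM value per gene and library. Their fold changes, limits and p-values in the same table were not used. Of 14398 rows, 45 repeated a gene, leaving 14353 genes. The values of INPUT VP1.6 and of both VP2.11 libraries are rounded to 3 significant digits. The values carry no read totals. Many genes had exactly the same TRAP minus INPUT difference within VP2.2 (2161 genes) and VP2.6 (2983 genes), against 48 to 66 between these pools, and the origin of these repeats is not known. Rounding bars the same check in VP1.6 and VP2.11. Whether the 10 genes are among the repeats was not examined. Reads per library were not recovered, so depth and counting error are not given. The lowest level of the 10 genes in a library was 4.50 CPM.

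The 14249 genes that exceeded 1 CPM in 3 or more libraries were tested with limma 3.58.1 (lmFit, eBayes with a trend) in R 4.3.3, with Benjamini-Hochberg adjustment over all of them, after the fits were checked on simulated data. Fractions were paired by pool in the blocked fit, since the labels name both after the pool and they derive from 1 homogenate. The correlation of their deviations was -0.495 to -0.745 across genes. Genes named by rule beyond the 10 are those with the largest log2 fold changes called in both fits, with Pcsk1n and Slc17a6. At most 3 each way per list were taken. Other cell type markers, Mag among them, are named outside this rule. The genes and lists were chosen with earlier results of these data known. Pools are the replicates. limma moderates the spread of each gene toward a trend over all genes, so its p-values do not measure that gene's spread between pools alone. Alternatives were array weights, other scalings, no filter, a pseudocount, trends on exon length or GC taken out, centring on neuronal genes, and leaving out each pool.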

Additional observations from a re-analysis of the deposited data

Results flagged for a closer look

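Levels were examined in 44 groups of 4 libraries, the 10 genes and the other genes named by rule in each fraction. Dixon's ratio was used, which compares the gap of an outlying library with the range. Chance flags about 1 in 20 such groups, or 2.2, and 5 were found. All 5 were INPUT libraries. Chgb stood at 6.88 log2 CPM in INPUT VP2.11, with the others at 6.41 to 6.46. Pcsk5 stood at 2.15 in the same library, with the others at 1.68 to 1.71. INPUT VP2.2 was low for Cpd at 3.79 (others 4.41 to 4.44) and for Cadps2 at 4.33 (others 5.19 to 5.31). INPUT VP1.6 was low for Vip at 2.21, with the others at 2.30.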

How the results depend on the processing

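With the pool as a replicate block, 6 of the 10 genes were called in place of 7, 3 of the other processing genes in place of 5 and 5 of the vesicle assembly and release genes in place of 10. Among the 10 genes the block ended only the call of Vgf. Array weights gave 9 other processing genes, and 3 with the block. Over all genes they gave 8645 calls in place of 6830, and 6013 in place of 4592 with the block. Taking out a trend on exon length moved the median of all genes from -0.05 to 0.07 and that of the 10 genes from 0.75 to 1.07, with or without the block. Scg5 (log2 fold change 1.01) and Pam (-0.71) were then called in both fits, Cpe (0.49) without the block only, and Pcsk2 (0.43) was not called with the block. With that trend or one on GC content taken out, 3 other processing genes were called with the block. Taking out the length trend moved the median of the peptide precursors from -1.31 to -0.66. Of the precursors, 4 were then higher and 7 lower in the unblocked fit, and 3 and 8 in the blocked fit. Taking out the GC trend, chosen after seeing the data, moved the median of all genes to 0.11, and Cpe (0.35) was called without the block. Centring on 5 pan-neuronal genes, also chosen after seeing the data, gave 10643 calls over all genes in place of 6830, with 289 higher and 10354 lower. It gave 8 other processing genes with or without the block, all lower, and, with the block, 4 of the 10 genes. The median of the 10 genes was then -0.31. Under it the sign turned in both fits for Scg3 (-0.27), Vgf (-0.34), Scg5 (-0.71), Pcsk2 (-0.38) and Cpe (-0.94). Direction held for the 10 genes under the other alternatives.

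Leaving out each pool in turn, with and without the block, gave 3232 to 6894 calls over all genes, 4 to 8 among the 10 genes, 2 to 6 among other processing genes and 4 to 10 among vesicle assembly and release genes. Chgb, Chga, Scg2 and Pcsk1 were called in each of these fits. For the pairs, leaving out a pool kept each sign, with sizes that moved as given above, and 3 libraries against 3 allow no p below 0.1, so those fits say nothing of the calls.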
